A study of Homo sapiens with 6 samples.

Results

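The S100 proteins and the annexins were followed in HCCLM3 cells, an established human hepatocellular carcinoma (HCC) line, after overexpression of the long noncoding RNA LINC00862. Members were the protein-coding rows of the deposited gene table whose symbol is S100 followed by A and a number, B, P, G, Z or PBP, or ANXA followed by a number. The rule found 30 of the 35856 genes of the table, namely 19 S100 genes and the 11 annexin genes ANXA1 to ANXA11. One of the 19, S100PBP, encodes a protein that binds S100P and is not itself an S100 protein, so it was left out of summed S100 levels. S100G and ANXA13 were not analysed here. The LINC00862 group held 3 libraries of cells transfected with a LINC00862 vector, and the Empty group, NC in the sample labels, held 3 libraries of cells transfected with the empty vector. Both groups share the cell line and the transfection, and the study's methods name pcDNA3.1 as the vector that carried LINC00862. Whether the sequenced cells were a pool or a clone, and whether the libraries came from separate cultures, is not given in the sources used here, so the p-values measure the spread between these samples, which may be technical.

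S100 proteins are small dimers with a pair of EF-hands, the helix-loop-helix motif that binds calcium, and most of them change shape with calcium and then grip a partner protein. Annexins bind acidic phospholipids of membranes when calcium rises, through a core of annexin repeats, and their N-terminal tails carry the sites for S100 partners. S100A10 with annexin A2 and S100A11 with annexin A1 are the best known pairs, and S100P, S100A8, S100A9 and S100A7 are known as proteins of epithelia and myeloid cells that also act outside the cell.

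Counts of reads and FPKM, fragments relative to gene length and to library size, were deposited for each gene and library, and total counts lay between 58241123 and 68229070. The overexpressed gene LINC00862 had counts of 11, 21 and 6 in Empty 1, 2 and 3 and of 145, 121 and 76 in LINC00862 1, 2 and 3. Its level stayed under 1 FPKM in all libraries, with 0.0425, 0.0884 and 0.0214 FPKM in Empty and 0.530, 0.506 and 0.312 FPKM in LINC00862. Its log2 fold change was 3.22 (SE 0.53, edgeR adjusted p = 0.000583), with every LINC00862 library above every Empty library, and it was 3.83 without Empty replicate 2. The groups stood far apart over all genes, with Spearman correlations of FPKM of 0.896 to 0.909 within a group and 0.754 to 0.767 between groups. The labelled cell type, hepatoma cells, was checked on hepatocyte markers, 7 of 10 of which are in the table. Their summed FPKM was 2.94 to 3.46 in Empty and 539 to 618 in LINC00862, mostly FGB, while APOA1, APOB and TTR stayed under an FPKM of 1 in all 6 libraries. SERPINA1 of the same list fell, from a mean of 1.29 to 0.0950 FPKM. Summed epithelial markers (7 of 7 listed genes) were at 194 to 288 FPKM in Empty and 562 to 688 in LINC00862, and summed mesenchymal markers (7 of 7) at 949 to 972 and 7.10 to 7.80. Most of the epithelial sum in Empty was KRT8 and KRT18, with means of 84.5 and 153 FPKM there and 62.2 and 219 in LINC00862. EPCAM, CLDN7, ESRP1, CDH1 and KRT19 were each under 1 FPKM in Empty and rose. Their largest mean in LINC00862 was 160 FPKM, for EPCAM, and their smallest 3.37, for KRT19. These lists moved with the groups, and their part in the results was not tested. In bulk RNA, fewer cells of a type and less RNA per cell cannot be told apart.

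Of the 30 members, 26 passed the filter on low counts and were tested, and 21 of them were differentially expressed, with an edgeR adjusted p under 0.05. Of these, 9 rose and 12 fell in LINC00862. Among the 15 tested S100 genes, S100PBP included, 7 (46.7%) rose and 6 (40.0%) fell, against 34.4% of all 20741 tested genes called higher and 29.8% called lower. Among the 11 annexins, 2 (18.2%) were up-regulated, whereas 6 (54.5%) were down-regulated. No test was made of these shares against the background. The median log2 fold change was -0.58 over the tested S100 genes, with S100A7 taken at its lower bound, and -0.98 over the annexins, beside 0.11 over all tested genes. In a test against a fold change of 2, 9 members were higher and 9 were lower, while 38.6% of all tested genes were called in either direction. The FPKM of the groups did not overlap for all 26 tested members, a pattern that 71.1% of tested genes showed. The 4 members that were not tested, S100A5, S100A12, S100B and S100Z, had at most 21 counts in any library.

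Among the S100 genes with reads in every Empty library, S100P and S100A14 had the largest rises, and both were near 0 in the control cells and abundant after LINC00862 overexpression. S100P, on chromosome 4 and known as an ezrin-binding S100 protein first found in placenta, had 0.586, 1.21 and 0.880 FPKM in Empty and 351, 346 and 203 FPKM in LINC00862. LINC00862 3 was the lowest of its group, yet far above every Empty library. The log2 fold change of S100P was 8.51 (SE 0.35, edgeR adjusted p = 1.51e-07). S100A14, an S100 protein of epithelial cells, had 0.480, 0.279 and 0.310 FPKM in Empty and 109, 97.0 and 83.1 FPKM in LINC00862, a 299-fold rise without overlap (log2 8.22, SE 0.23, edgeR adjusted p = 2.95e-08). S100PBP, whose product binds S100P in the nucleus, moved the other way. Its FPKM was 4.10, 3.81 and 2.61 in Empty and 1.35, 1.43 and 1.51 in LINC00862, with the lowest Empty library, Empty 3, still above all LINC00862 libraries (log2 fold change -1.10, SE 0.18, edgeR adjusted p = 0.000667). The S100PBP fall was not past the test against a fold change of 2.

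Of the S100 genes known from inflammation, S100A9, S100A8 and S100A7 also rose, while S100A12, with counts of 0, 4 and 0 in both groups, was not tested. S100A9, which pairs with S100A8 as calprotectin, had 0.268, 0.518 and 0.561 FPKM in Empty and 41.9, 38.8 and 27.8 FPKM in LINC00862 (log2 fold change 6.42, SE 0.33, edgeR adjusted p = 5.07e-07). S100A8, its partner, reached much lower levels, with 0.0769, 0.202 and 0.0498 FPKM in Empty and 0.792, 1.15 and 1.49 FPKM in LINC00862. The S100A8 groups did not overlap (log2 fold change 3.37, SE 0.61, edgeR adjusted p = 0.00105), although the Empty counts behind them were 5, 13 and 4. Without Empty replicate 2 the S100A8 log2 fold change was 4.10. The ratio of S100A9 to S100A8 FPKM was 3.49, 2.56 and 11.3 in Empty and 53.0, 33.7 and 18.6 in LINC00862, higher in all 3 LINC00862 libraries (exact permutation test, two-sided p = 0.1, which is the lowest value possible with 3 libraries a group). This ratio was not a planned comparison, and it was not followed when libraries were left out. S100A7, psoriasin, an antimicrobial S100 protein of stressed skin, had 0 counts in each Empty library and 915, 546 and 716 counts in LINC00862. Its FPKM there was 24.6, 17.0 and 21.9. Against a floor of 3 counts per library, S100A7 was at least 257-fold higher in LINC00862 (edgeR adjusted p = 2.72e-06). The near copy S100A7A also had 0 counts in Empty and had 37, 42 and 32 counts in LINC00862, so a share of either gene's reads may be assigned to the other. Summed leukocyte markers (7 of 7) lay at 3.62 to 4.39 FPKM in Empty and 9.72 to 15.6 in LINC00862, with PTPRC, LYZ, ITGAM, CSF1R and CD3E under 1 FPKM in all libraries. The other 2 of these markers rose, CD68 from a mean of 1.00 to 6.81 FPKM (log2 fold change 2.91, edgeR adjusted p = 0.00013) and CD14 from 1.69 to 5.59 FPKM (1.88, edgeR adjusted p = 9.73e-05), and their part in the rises of S100A8 and S100A9 was not tested. Summed keratinocyte markers (4 of 5) lay at 6.24 to 11.6 and 8.02 to 10.6 FPKM, with KRT14, KRT1 and TP63 under 1 FPKM throughout.

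Promoter sequences of S100P and S100A9 are shown because both genes went from near 0 to high levels. They are RefSeq sequences on GRCh38.p14, from 250 bases before to 50 bases after the annotated start, and run 5′ to 3′ on the gene's strand. Capitals mark matches, on either strand, to short motifs. The core promoter motifs searched were the TATA box, with the letters TATAAA, and the GC box bound by SP1, with the letters GGGCGG. For factors that act below growth signals, AP-1 was searched as the letters TGANTCA and TEAD as the letters GGAATG. The epithelial and liver motifs were the E-box bound by ZEB and SNAI factors, with the letters CAGGTG, then the GRHL motif, with the letters AACCNGGTT, and the C/EBP motif, with the letters TTGCNNAA. The S100P promoter, chr4:6693628-6693927 on the plus strand, has a TATA box 28 bases and an E-box 218 bases before the start. The S100A9 promoter, chr1:153357604-153357903 on the plus strand, has a TATA box 29 bases, an E-box 92 bases and a GC box 131 bases before the start.
S100P: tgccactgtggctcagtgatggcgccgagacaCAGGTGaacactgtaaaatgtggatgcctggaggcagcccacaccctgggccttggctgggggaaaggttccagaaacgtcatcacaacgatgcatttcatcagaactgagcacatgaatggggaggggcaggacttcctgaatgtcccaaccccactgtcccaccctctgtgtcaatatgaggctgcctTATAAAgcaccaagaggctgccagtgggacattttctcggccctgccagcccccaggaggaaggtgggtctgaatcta
S100A9: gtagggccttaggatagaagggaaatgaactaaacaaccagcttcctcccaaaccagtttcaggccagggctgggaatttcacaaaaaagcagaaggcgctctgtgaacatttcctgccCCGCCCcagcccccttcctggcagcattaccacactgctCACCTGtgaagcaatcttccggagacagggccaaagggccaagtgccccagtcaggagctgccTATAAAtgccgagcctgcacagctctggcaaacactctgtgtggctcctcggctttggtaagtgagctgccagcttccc

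S100A11, already abundant in Empty, and S100A1, low in both groups, rose as well. S100A11, which binds annexin A1 and annexin A2, had 253, 381 and 442 FPKM in Empty and 1059, 911 and 1077 FPKM in LINC00862. All LINC00862 libraries exceeded all Empty libraries, and the log2 fold change was 1.67 (SE 0.25, edgeR adjusted p = 0.000362). S100A1, best known in heart muscle as a regulator of calcium release, had 0.437, 0.191 and 0.218 FPKM in Empty and 0.854, 1.81 and 1.19 FPKM in LINC00862 (log2 fold change 2.35, SE 0.40, edgeR adjusted p = 0.000805). The S100A1 gene overlaps S100A13 on the opposite strand, and the use of strand in the counting is not stated, so reads of the pair may be mixed.

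Against these rises, S100A10, S100A16, S100A2, S100A3 and S100A4 fell. S100A10, also called p11, the S100 protein that holds annexin A2 without needing calcium, had 345, 547 and 564 FPKM in Empty and 163, 142 and 169 FPKM in LINC00862. The lowest Empty library, Empty 1, still lay above the highest LINC00862 library (log2 fold change -1.45, SE 0.24, edgeR adjusted p = 0.000654). S100A16, a widely expressed member, had 101, 122 and 158 FPKM in Empty and 40.3, 42.1 and 30.2 FPKM in LINC00862 (log2 fold change -1.60, SE 0.22, edgeR adjusted p = 0.000177). S100A2, a mostly nuclear S100 protein that binds p53, had 8.06, 12.8 and 15.7 FPKM in Empty and 2.43, 2.63 and 2.99 FPKM in LINC00862. Its groups did not overlap, and its log2 fold change was -2.01 (SE 0.30, edgeR adjusted p = 0.000319). S100A3, a zinc-binding protein of the hair cuticle, had the deepest fall of the S100 genes, from 4.34, 6.13 and 6.48 FPKM to 0.320, 0.283 and 0.191 FPKM (log2 fold change -4.22, SE 0.37, edgeR adjusted p = 1.27e-05). S100A4, a partner of non-muscle myosin known for its part in cell motility, had 8.53, 11.1 and 15.4 FPKM in Empty and 5.06, 3.20 and 3.02 FPKM in LINC00862. Its log2 fold change was -1.47 (SE 0.32, edgeR adjusted p = 0.00288), and it was not past the test against a fold change of 2. S100A3 lies within the S100A4 gene on the same strand, so how the counting split their reads is uncertain.

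S100A6 and S100A13 did not pass the test. S100A6, calcyclin, the S100 gene with the highest FPKM in Empty, had 607, 1022 and 1179 FPKM in Empty and 596, 533 and 561 FPKM in LINC00862 (log2 fold change -0.58, SE 0.27, edgeR adjusted p = 0.0857). S100A13, which takes part in the release of FGF1 from cells, had 18.4, 30.9 and 36.3 FPKM in Empty and 17.7, 16.8 and 16.3 FPKM in LINC00862 (log2 fold change -0.60, SE 0.26, edgeR adjusted p = 0.0688). In both genes Empty 1 lay next to the LINC00862 libraries and apart from Empty 2 and 3. Without Empty 1, both were called lower by edgeR, S100A6 at -0.84 (adjusted p = 0.00115) and S100A13 at -0.86 (adjusted p = 0.000482). Empty 1 was lower than the mean of Empty 2 and 3 in all 7 S100 members with at least 100 counts in each library, with a median log2 ratio of -0.70. The same median was -0.50 over 236 genes with a length under 1000 nucleotides, as implied by counts and FPKM. It was 0.16 over 10835 longer genes and -0.01 over the 8 annexins counted this way. Of the 7 S100 members, only S100A11, at 728 nucleotides, was under 1000 by this length, and the others had 1070 to 2490. Their annotated principal transcripts were shorter, at 1037 nucleotides for S100A16 and 563 to 909 for the others. Genes were not divided by the length of the principal transcript, and the part of transcript length in the low S100 values of Empty 1 was not tested.

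**Figure D1:**
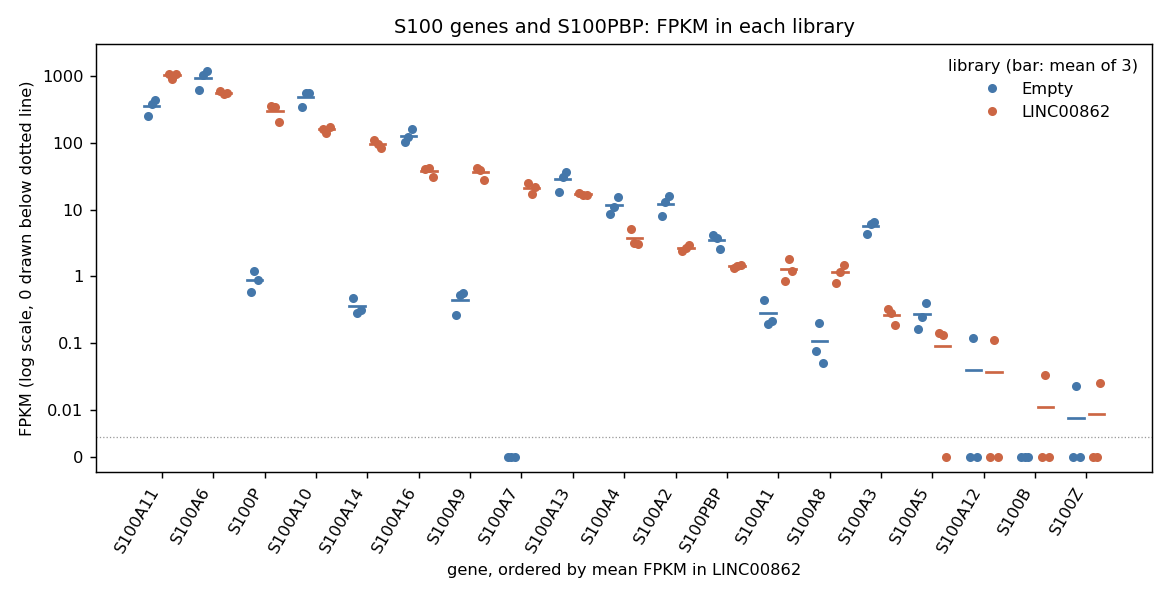
FPKM (log axis) of the 18 S100 genes and S100PBP in each of the 3 Empty and 3 LINC00862 libraries, with bars at group means and values of 0 drawn under the dotted line. S100P and S100A14 go from under 2 FPKM in Empty to above 80 in LINC00862, S100A7 is at 0 in each Empty library, and S100A3 falls below 0.4 FPKM.

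On chromosome 1, 13 of the members lie within 274186 bp from S100A9 to S100A1 (hg38 coordinates of the table), with S100A7A and further genes of the table among them. Members of this cluster moved in both directions, in part as runs of neighbours with the same call. In the order of the members, S100A9, S100A8 and S100A7 rose, with the untested S100A12 between the first of them and S100A8. S100A6 did not pass the test, the untested S100A5 followed, the next tested genes S100A4, S100A3, S100A2 and S100A16 fell, S100A14 rose, S100A13 did not pass and S100A1 rose. A turn between close neighbours was that from S100A16 at chr1:153606886-153613137 to S100A14 at chr1:153614255-153616927, both on the minus strand and 1117 bp apart. S100A14 went up by 8.22 and S100A16 fell by 1.60 on the log2 scale, and S100A13, 1859 bp beyond S100A14, stood at -0.60. S100A10 and S100A11 lie outside this run on the same chromosome, and they too moved oppositely, at -1.45 and 1.67. The upstream sequences of the neighbouring pair are shown for this contrast. The S100A14 promoter, chr1:153616276-153616575, has an E-box 14 bases before the start. This RefSeq start lies inside the gene as the table gives it, whose 5′ end is further upstream. The S100A16 promoter nearest to S100A14, chr1:153613088-153613387 and 1 of 2 listed starts, has E-boxes 178 and 191 bases and a TEAD match 247 bases before its start.
S100A14: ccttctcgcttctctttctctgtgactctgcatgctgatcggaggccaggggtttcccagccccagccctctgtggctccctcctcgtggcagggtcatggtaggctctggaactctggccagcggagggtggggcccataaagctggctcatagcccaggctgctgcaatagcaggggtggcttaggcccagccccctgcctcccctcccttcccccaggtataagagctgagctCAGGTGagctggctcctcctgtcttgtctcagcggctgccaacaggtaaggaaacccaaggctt
S100A16: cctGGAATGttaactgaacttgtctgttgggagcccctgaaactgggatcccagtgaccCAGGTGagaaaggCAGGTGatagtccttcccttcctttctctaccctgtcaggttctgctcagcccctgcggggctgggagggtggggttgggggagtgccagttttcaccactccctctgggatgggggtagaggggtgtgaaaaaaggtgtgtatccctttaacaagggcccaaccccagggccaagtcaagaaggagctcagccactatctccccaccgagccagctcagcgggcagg

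**Figure D2:**
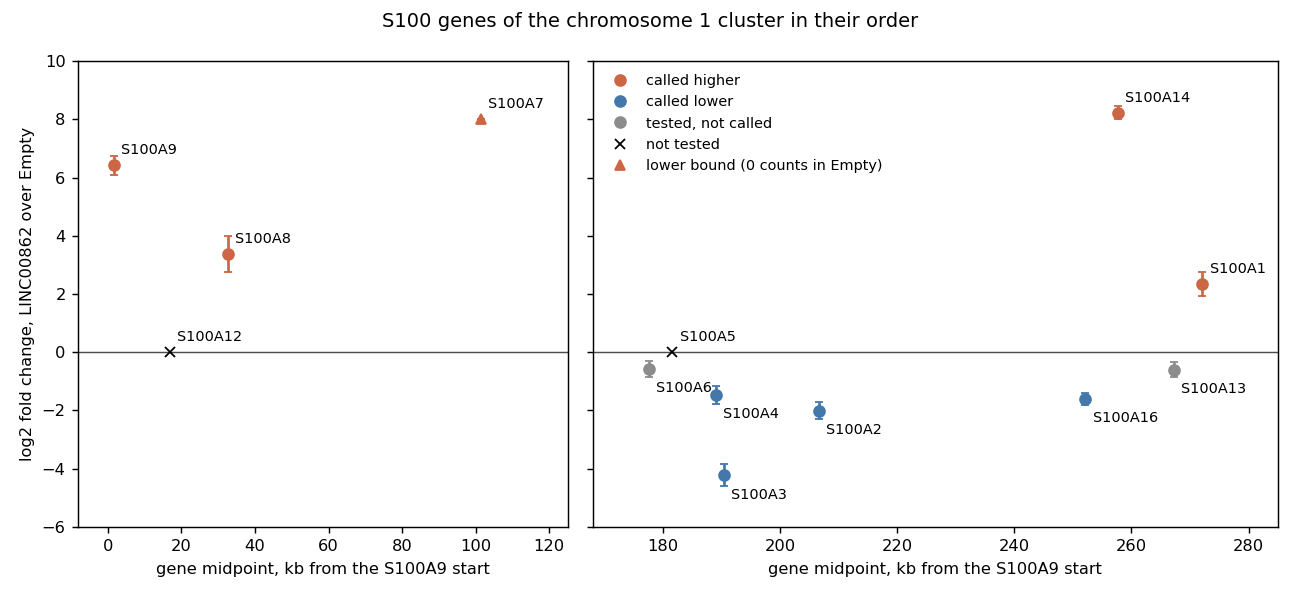
Log2 fold change of LINC00862 over Empty (edgeR, error bars 1 SE) for the 13 S100 genes of the chromosome 1 cluster, placed by the distance of their midpoints from the S100A9 start, with a break in the axis between the panels. Crosses at 0 are genes that were not tested, the triangle is the lower bound for S100A7, and S100A14 stands at 8.22 between S100A16 at -1.60 and S100A13 at -0.60.

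Across the annexins the falls dominated and took in the most abundant members. ANXA2, which with S100A10 forms a surface platform for plasminogen, had 298, 331 and 345 FPKM in Empty and 39.7, 38.5 and 32.7 FPKM in LINC00862. The 7.82-fold fall was without overlap (log2 -2.97, SE 0.18, edgeR adjusted p = 1.3e-06). ANXA2P2, a processed pseudogene nearly identical to ANXA2, went from a mean of 183 to 21.7 FPKM, and reads of the 2 genes may be exchanged. With the counts of ANXA2P2 added to ANXA2, an alternative chosen after seeing the data, the log2 fold change was likewise -2.97. ANXA1, a phospholipase A2 inhibitor induced by glucocorticoids, had 109, 119 and 102 FPKM in Empty and 8.02, 7.35 and 7.96 FPKM in LINC00862, with little spread inside either group (log2 fold change -3.65, SE 0.16, edgeR adjusted p = 2.57e-07). ANXA3 had 23.2, 25.0 and 17.7 FPKM in Empty and 1.36, 1.10 and 1.38 FPKM in LINC00862 (log2 fold change -3.91, SE 0.20, edgeR adjusted p = 5.67e-07). ANXA6, the annexin with a duplicated core, had 71.6, 57.4 and 75.7 FPKM in Empty and 17.0, 17.8 and 9.62 FPKM in LINC00862. The lowest ANXA6 value, in LINC00862 3, was well apart from the other libraries of its group, and all 3 were below Empty (log2 fold change -2.04, SE 0.22, edgeR adjusted p = 4.85e-05). ANXA5, widely used as a probe for phosphatidylserine on dying cells, fell less, from 174, 198 and 191 FPKM to 88.3, 80.2 and 84.2 FPKM (log2 fold change -0.98, SE 0.16, edgeR adjusted p = 0.000502), and was not past the test against a fold change of 2. ANXA8 was low in both groups, with counts of 36, 58 and 56 in Empty and 3, 0 and 4 in LINC00862 (edgeR adjusted p = 0.00147), and its near copy ANXA8L1 was low too, with a mean of 0.163 FPKM in Empty and 0.00364 in LINC00862.

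The ANXA2 promoter is shown as that of the annexin with the highest FPKM in Empty, which fell. It spans chr15:60397937-60398236 on the minus strand of GRCh38.p14, with 76.0% G and C, and here too the RefSeq start lies inside the gene as the table gives it. A TATA box lies 31 bases before the start, overlapping GC boxes lie 68, 73 and 78 bases before it, and an AP-1 match lies 127 bases before it.
ANXA2: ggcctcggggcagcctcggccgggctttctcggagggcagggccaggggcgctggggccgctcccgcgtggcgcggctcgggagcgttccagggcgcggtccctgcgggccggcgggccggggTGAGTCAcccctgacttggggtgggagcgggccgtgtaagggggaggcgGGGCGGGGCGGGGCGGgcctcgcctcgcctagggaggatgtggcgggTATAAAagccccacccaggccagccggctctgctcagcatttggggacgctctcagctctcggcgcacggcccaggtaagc

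Promoter entries were found for 28 of the 30 members, 41 entries in all, with none for ANXA8 and S100B. The TATA box was in an entry of 5 of the 9 genes that rose (ANXA10, S100A7, S100A8, S100A9 and S100P) and of 3 of the 11 that fell and have an entry, beside 11.5% of all 35116 promoters. The GC box was in 2 of 9 and 7 of 11, beside 45.0% of all promoters. The AP-1 letters were in 0 of 9 and 4 of 11 (ANXA2, S100A2, S100A3 and S100PBP), beside 7.71%. The E-box was in 5 of 9 and 5 of 11 (20.6% of all), the C/EBP letters in 2 of 9 and 2 of 11 (10.5%), the TEAD letters in 0 of 9 and 1 of 11 (14%), and the GRHL letters in 0 of both (0.239%). Genes with several entries had more chances of a match, and these matches are descriptions of the letters only.

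The annexins ANXA9 and ANXA10 rose, both from low levels. ANXA9, an annexin whose core has lost much of its calcium binding, had 0.740, 0.778 and 0.796 FPKM in Empty and 11.9, 14.8 and 10.5 FPKM in LINC00862 (log2 fold change 4.15, SE 0.21, edgeR adjusted p = 4.73e-07). ANXA10, found mainly in the stomach lining, had 0.119, 0.463 and 0.0565 FPKM in Empty and 6.25, 5.43 and 6.20 FPKM in LINC00862. Its Empty libraries spread widely, on counts of 16, 57 and 7, but none reached the LINC00862 libraries (log2 fold change 4.92, SE 0.64, edgeR adjusted p = 0.000148). Without Empty replicate 2 its log2 fold change was 6.18. ANXA4, ANXA7 and ANXA11 did not pass the test. ANXA4, an annexin of secretory epithelia, had 4.11, 4.31 and 3.90 FPKM in Empty and 4.75, 4.56 and 4.31 FPKM in LINC00862 (log2 fold change 0.32, SE 0.13, edgeR adjusted p = 0.0606). ANXA7 had 31.1, 29.7 and 28.7 FPKM in Empty and 23.2, 23.6 and 18.9 FPKM in LINC00862 (log2 fold change -0.28, SE 0.13, edgeR adjusted p = 0.0863). ANXA11 had 12.5, 11.8 and 15.2 FPKM in Empty and 10.7, 9.86 and 7.70 FPKM in LINC00862 (log2 fold change -0.32, SE 0.17, edgeR adjusted p = 0.124). ANXA7 and ANXA11 have long N-terminal tails and bind the penta-EF-hand proteins PDCD6 or sorcin. All 3 had small differences beside those of ANXA1, ANXA2 and ANXA3. ANXA4 became called under DESeq2 at 0.37 and under upper quartile scaling at 0.53, while ANXA7 became called without Empty replicate 1 at -0.29 (adjusted p = 0.0425).

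**Figure D3:**
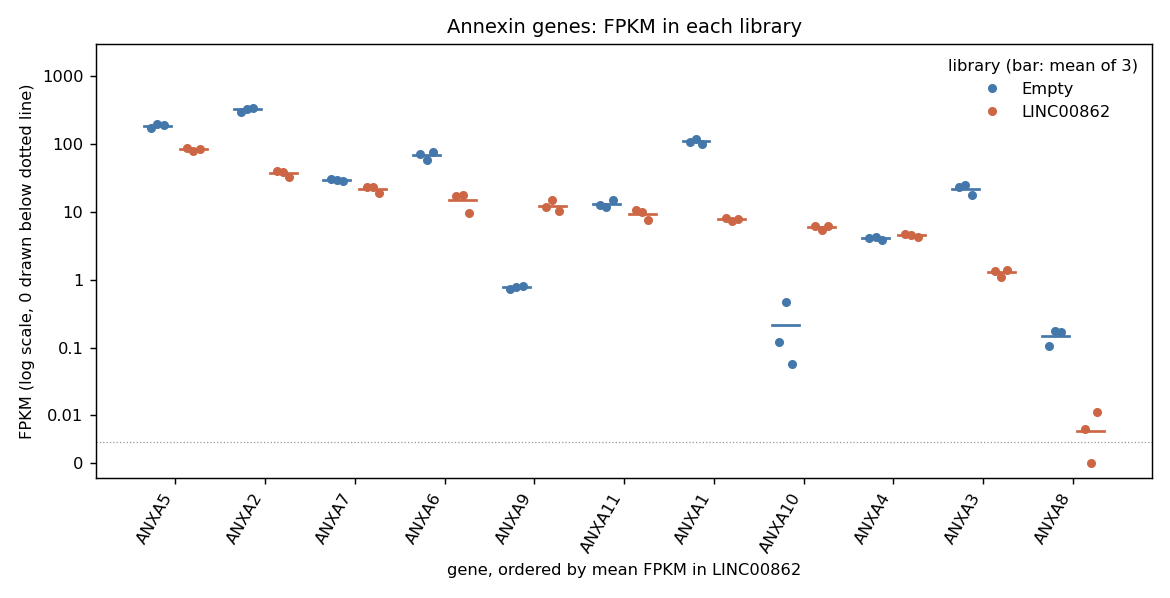
FPKM (log axis) of the 11 annexin genes in each of the 3 Empty and 3 LINC00862 libraries, with bars at group means and a value of 0 drawn under the dotted line. ANXA1, ANXA2, ANXA3 and ANXA6 are lower in LINC00862 and ANXA9 and ANXA10 are higher, while ANXA4, ANXA7 and ANXA11 lie close together.

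The summed levels of the families behaved differently. Summed over 18 S100 genes, FPKM was 1348, 2135 and 2419 in Empty and 2412, 2153 and 2199 in LINC00862, and the groups overlapped. The means were 1967 ± 555 and 2254 ± 138 (SD, n = 3), a difference within the spread between libraries (exact permutation test, two-sided p = 0.5). The summed annexin FPKM was 724, 778 and 780 in Empty and 211, 203 and 184 in LINC00862, without overlap. The means were 761 ± 32.1 and 199 ± 14.3 (SD, n = 3), a 3.82-fold lower level in LINC00862 (exact permutation test, two-sided p = 0.1, the smallest possible).

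Within the S100 sum, the leading gene changed. S100A6 made up 47.2% ± 1.94 of the summed S100 FPKM in Empty and 25.0% ± 0.457 in LINC00862 (SD, n = 3), while S100A11 went from 18.3% ± 0.471 to 45.1% ± 3.47. S100A10 went from 24.8% ± 1.35 to 7.02% ± 0.599, and S100P from 0.0455% ± 0.0103 to 13.3% ± 3.58. In the annexin sum, ANXA2 went from 42.6% ± 1.54 to 18.5% ± 0.595 and ANXA5 from 24.7% ± 0.765 to 42.4% ± 3.25. ANXA1 went from 14.5% ± 1.22 to 3.92% ± 0.375, and ANXA9 from 0.101% ± 0.00126 to 6.21% ± 0.933. These shares compare genes per length. For 26 of 29 members the length implied by the deposited counts and FPKM tracked the union of all annotated exons. For ANXA2 this union is 8824 nucleotides against 1444 in its principal transcript. S100P departed from this, with 536 nucleotides implied against a union of 1280 and a principal transcript of 1279. S100A10 departed too, with 1140 implied against a union of 1543. With the principal transcript lengths, an alternative chosen after seeing the data, ANXA2 was at 69.7% in Empty and 45.4% in LINC00862 and stayed ahead of ANXA5 at 11.0% and 28.3%. Under the same lengths S100A11 went from 14.8% to 43.8%, S100A6 from 50.3% to 32.1% and S100P from 0.0127% to 4.38%.

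**Figure D4:**
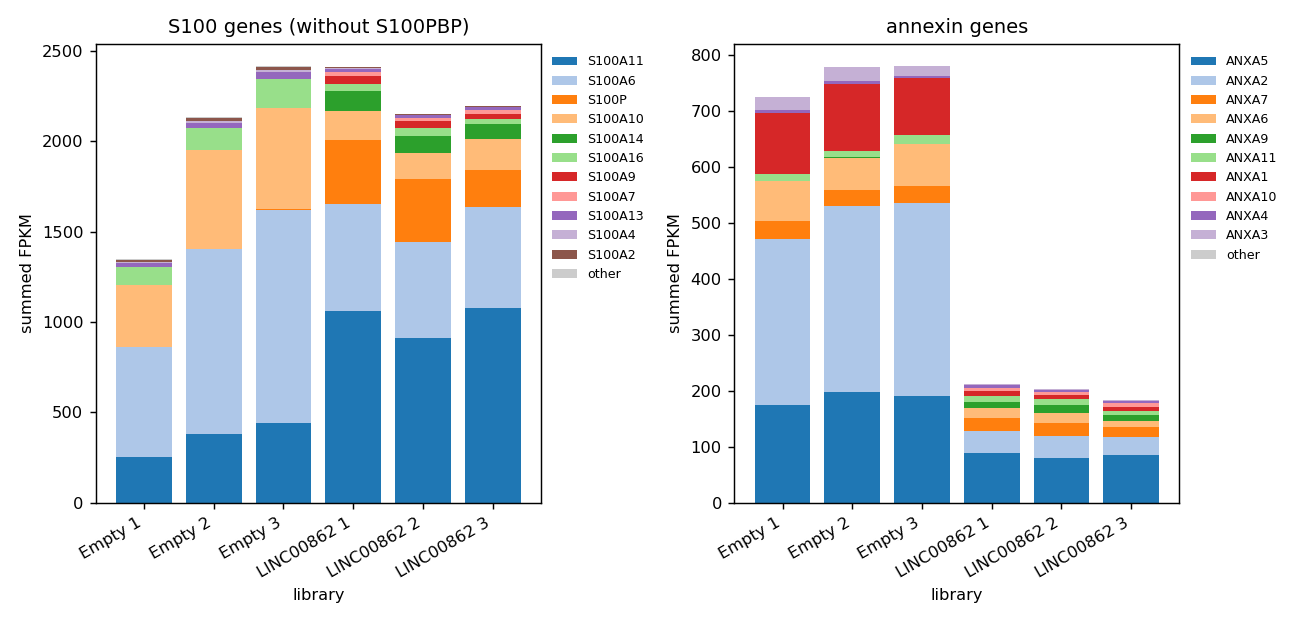
Summed FPKM of the 18 S100 genes (left) and the 11 annexins (right) in each of the 6 libraries, with each bar divided by gene. The S100 sums overlap between the groups while S100A11 and S100P take a larger part in LINC00862, and the annexin sums fall from 724 to 780 in Empty to 184 to 211 in LINC00862.

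The partners S100A10 and ANXA2 both fell, but not to the same extent. The ratio of their FPKM was 1.16, 1.65 and 1.63 in Empty and 4.10, 3.69 and 5.18 in LINC00862. All LINC00862 libraries were above all Empty libraries, and the log2 ratio of the means was 1.54 (exact permutation test, two-sided p = 0.1, the smallest possible). Which of the 2 genes was the more abundant depended on the length, since with principal transcript lengths the ratio was 0.212, 0.301 and 0.298 in Empty and 0.747, 0.674 and 0.944 in LINC00862, while its change was again 1.54. The genes of the other known pair moved in opposite directions, with S100A11 at a log2 fold change of 1.67 and ANXA1 at -3.65.

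Genes that work with the members were counted from lists, to be read beside the 34.4% of all tested genes called higher and the 29.8% called lower. Both activators of plasminogen, for which the complex of annexin A2 and S100A10 is a platform, fell. PLAU, the urokinase activator, went from a mean of 67.8 to 0.472 FPKM (log2 fold change -7.00, edgeR adjusted p = 9.83e-08), and PLAT, the tissue activator, from 2.87 to 0.102 (-4.60, edgeR adjusted p = 9.35e-06). Of 7 tested receptors of extracellular S100 proteins or annexin A1, 1 rose and 4 fell. TLR4, a receptor of S100A8 and S100A9, was at a log2 fold change of -5.20, MCAM, another S100A8 and S100A9 receptor, at -4.88, and ALCAM at -0.97. Of 16 tested intracellular partners, 2 rose and 12 fell. SRC had the largest fall of this list, at -4.72. AHNAK, a scaffold held by annexin A2 and S100A10, was at -3.46, and EZR, ezrin, the partner of S100P, at -3.15. PLA2G4A, the cytosolic phospholipase A2 that annexin A1 inhibits, was at 6.82 and PDCD6 at 0.84.

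Other calcium-binding families held calls in both directions, as did all tested genes (34.4% higher, 29.8% lower). Of 13 tested EF-hand genes that are not S100 genes, 5 rose and 6 fell. Parvalbumin, PVALB, was at a log2 fold change of 8.59, GCA at 3.58 and CHP1 at 1.22, while EFHD2 was at -3.42, CETN2 at -2.67 and CALM3, a calmodulin gene, at -1.97. Of 13 tested copine, synaptotagmin and ferlin genes, which bind membranes through C2 domains in place of annexin repeats, 4 rose and 7 fell. SYTL1 was at 5.36 and SYTL2 at -3.16. Of the fused S100 genes of epidermal differentiation, 3 of 6 were tested, 2 rose and none reached a mean of 1 FPKM. The list medians were -0.93 for the receptors, -1.19 for the intracellular partners, -0.78 for the EF-hand genes and -1.51 for the C2 domain genes, beside 0.11 over all tested genes.

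Markers of cells in which single members are typical were also summed. S100B is a marker of glia and melanocytes, and its counts were 0 in 5 of 6 libraries. Summed endothelial and fibroblast markers (6 of 6) were at 7.20 to 8.74 FPKM in Empty and 14.9 to 18.1 in LINC00862, with PECAM1, VWF and COL1A2 under 1 FPKM. The other 3 moved both ways, with CDH5 at a log2 fold change of 3.63, COL1A1 at 2.32 and PDGFRB at -5.86, each called by edgeR.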

How the data were processed

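Poly(A) RNA of 6 HCCLM3 libraries was sequenced (Empty, n = 3; LINC00862, n = 3). The authors deposited counts of reads per gene, not normalized, and FPKM, which the authors scaled by transcript length and mapped fragments. The submitters' processing notes name hg38, cutadapt 1.9, HISAT2 2.0.4, UMI-tools, StringTie 1.3.4d, DESeq2 and edgeR, without their roles. Whether molecular identifiers were collapsed, and whether counting used the strand, is not given in the sources used here.

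Counts of all genes were fitted with edgeR 4.0.16 in R 4.3.3 (filterByExpr, TMM, quasi-likelihood test, Benjamini-Hochberg adjustment over 20741 genes, false discovery rate 0.05). Standard errors were derived from the test statistic. Ratios and sums of FPKM were compared by exact two-sided permutation tests, whose smallest p is 0.1. A count of 3 per library was the floor for genes at 0, which covers counting error only. The script was tested on simulated data. Members whose mean FPKM reached 1 in either group are given in every library. List genes with fold changes are drawn from the up to 3 largest called rises and 3 largest called falls per list at that level, and not all of these are named. ANXA8 and the near copies S100A7A and ANXA8L1 were named outside this rule. The members and lists were chosen with earlier results of these data known. Alternatives were DESeq2 1.42.0, limma 3.58.1 on log2(FPKM + 1) and log2(FPKM + 0.1), other scalings and filters, a replicate block, a test against a fold change of 2 and leaving out each library. Coordinates are those of the table, and promoters are from RefSeq GRCh38.p14. Python 3.11.15 with pandas 2.3.3 and matplotlib 3.10.9 was used for tables and plots. Results of 2 lists, of the plasminogen system and of glial and melanocyte markers, are not reported here as a whole. The proteomics and other assays of the study were not analysed here.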

Additional observations from a re-analysis of the deposited data

How the results depend on the processing

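Among the comparisons followed over the alternatives, the summed S100 FPKM was the one whose direction depended on the processing. Its log2 ratio of LINC00862 to Empty was 0.20, and it became -0.014 without Empty replicate 1 and -0.065 with principal transcript lengths. Over the settings that left out 1 library it ran from -0.014 to 0.373. The summed annexin FPKM ran from -1.98 to -1.88 and the ratio of S100A10 to ANXA2 from 1.39 to 1.64 over the same settings. Without 1 library at a time, edgeR called 7 S100 genes higher each time and 6 to 8 lower. Of 351 values of single members under the alternatives, 333 kept direction and call, 15 became called, 3 lost the call and 0 reversed. ANXA5 (adjusted p = 0.51), S100A4 (0.0649) and S100PBP (0.251) lost it in the edgeR test against a fold change of 2. Scaling shifted the median log2 fold change of all genes, which was 0.11 under TMM, 0.16 under DESeq2, 0.32 under the upper quartile and -0.05 under library size alone. With library size only, S100A6, S100A13, ANXA7 and ANXA11 were called lower too, and edgeR called 8 S100 genes and 8 annexins lower. Same-numbered libraries did not deviate together (correlations -0.109, -0.112 and -0.083), so the numbers were not taken as pairs. With a replicate block the counts were again 7 S100 genes higher, 6 lower, 2 annexins higher and 6 lower, and LINC00862 was at 3.35, so the block changed no call of these. On the log2(FPKM + 1) scale of limma, genes low in one group moved less, with S100A8 at 0.94, ANXA10 at 2.53 and S100A3 at -2.38, since the added 1 is large beside their levels. The precision is limited by 3 libraries a group and, for S100P, S100A14, S100A9, S100A8, ANXA8 and ANXA10 in Empty, by counts under 60.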
